A study of Mus musculus with 2 samples.

Results

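The Notch genes examined here were 10 in number: the receptors Notch1, Notch2, Notch3 and Notch4, the ligands Dll1, Dll4, Jag1 and Jag2, and the target genes Hes1 and Hey1. They were chosen by gene symbol, and all 10 were found among the 19505 genes of the array table, each with 1 probe. The cells came from mouse lung and were sorted for an SPC/GFP reporter (SPC stands for surfactant protein C, which alveolar type 2 cells make) together with the epithelial surface protein EpCAM. The smoke sample came from mice after 3 months of smoke, and the air sample from mice kept for 3 months in air as controls; both samples were sorted on the reporter. Each condition was read on 1 Clariom S Mouse array, so the differences have no replicates behind them and no test, and they hold for these 2 samples rather than for the exposures. The strain, age, sex and number of mice, any pooling, and the design of the reporter transgene are not stated in the sources used here.

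Notch signalling passes between touching cells. A Delta-like (Dll) or Jagged (Jag) ligand on the sending cell pulls on a Notch receptor, which is then cut by the protease ADAM10 and by the gamma-secretase complex; the freed intracellular part enters the nucleus, joins the DNA-binding protein RBPJ and a Mastermind coactivator, and switches on genes such as Hes1 and Hey1, which encode transcriptional repressors. In the lung the pathway is known for steering airway progenitors towards club rather than ciliated cells and for the growth of blood vessels, and in injured alveoli for a part in the passage of type 2 cells to type 1 cells.

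The values are deposited signals on a log2 scale, and a difference is smoke minus air on that scale. A gene was counted as past 2-fold when its difference was at least 1 or at most -1 and its brighter array reached 4.57, the median over all probes and both arrays, called the level filter. Of 10419 genes above this filter with a measurable difference, 668 (6.41%) were past 2-fold, 410 of them (3.94%) higher in the smoke array and 258 (2.48%) lower. Of the 10 Notch genes 8 were above the filter, and 1 of the 8, Dll1, was past 2-fold, on the lower side. It entered through its air signal alone, so the filter itself favours a difference for it. The median difference over the 10 genes was 0.09 and the mean was -0.08, beside a median of -0.02 over all genes. Over the 8 above the filter the median was 0.13, beside 0.06 over all genes above it. Of the 10 genes 6 were higher in the smoke array and 4 lower. Of the genes of the sort, Sftpc, which encodes surfactant protein C, stood at 19.93 in both arrays, the upper limit of the deposited scale, and Epcam stood at 10.92 in smoke and 11.09 in air. Scgb1a1 and Cbr2, listed here as club cell markers, and Lyz2, listed as a leukocyte marker, also stood at 19.93 in both. Whether type 2 cells themselves made the RNA of these genes was not tested. Most endothelial markers were above the filter (Cdh5 at 13.86 in smoke and 14.34 in air). With no unsorted sample these levels do not show how pure the cells were.

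**Figure D1:**
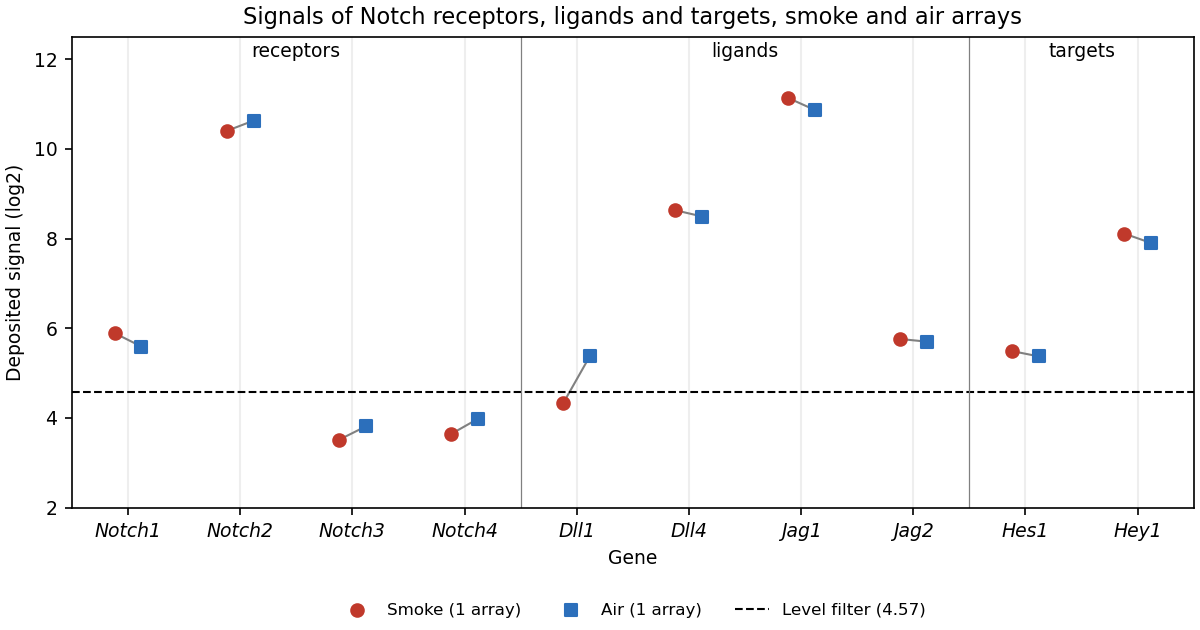
Deposited log2 signal (vertical axis) of the 10 Notch genes (horizontal axis, by role), with a circle for the smoke array and a square for the air array; the dashed line is the level filter at 4.57. Dll1 lies on different sides of the line in the 2 arrays, Notch3 and Notch4 lie below it in both, and the other 7 lie above it in both.

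Among the receptors, Notch2, which has been studied in alveolar and airway epithelium, had a signal of 10.40 in smoke and 10.63 in air, a difference of -0.23. Each gene was also set beside the 200 genes nearest to it in mean level. For Notch2 these had a median difference of 0.14 with a robust SD, a scaled median absolute deviation, of 0.38, and 30 of the 200 had a lower difference than Notch2. Centred on that median the difference of Notch2 was -0.36, only a little under the robust SD. Notch1, a receptor needed for T cell development, stood at 5.89 in smoke and 5.59 in air. Its difference of 0.30 was also inside the spread of genes of like level, whose robust SD was 0.51, and 141 of the 200 lay lower.

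Notch3, the receptor of pericytes and smooth muscle cells, had signals of 3.51 in smoke and 3.81 in air. Notch4, a receptor made largely by endothelial cells, had signals of 3.64 in smoke and 3.98 in air. Both genes thus lay below the level filter in each array. Their differences of -0.30 and -0.34 shrank to -0.13 and -0.16 when an offset of 16 was added on the linear scale, a step that damps low signals. Genes of like level had a median of -0.14 for Notch3 and -0.07 for Notch4, with robust SDs of 0.43 and 0.44. Of the 200, 63 lay lower than Notch3 and 61 lower than Notch4. Of the 4 receptors, 1 was higher in the smoke array and 3 were lower, with a median difference of -0.26. Over the 2 receptors above the filter the median was 0.03.

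Dll1, a Delta-like ligand that activates Notch receptors on neighbouring cells, was the Notch gene with the largest difference. Its signal was 4.33 in smoke and 5.39 in air, a difference of -1.06, or 2.08-fold lower in the smoke array. Only 5 of the 200 genes of like level had a lower difference, and their robust SD was 0.47. The smoke signal was below the level filter and the air signal not far above it. With the offset of 16 the difference was -0.68 and with an offset of 64 it was -0.33, neither of them past 2-fold.

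**Figure D2:**
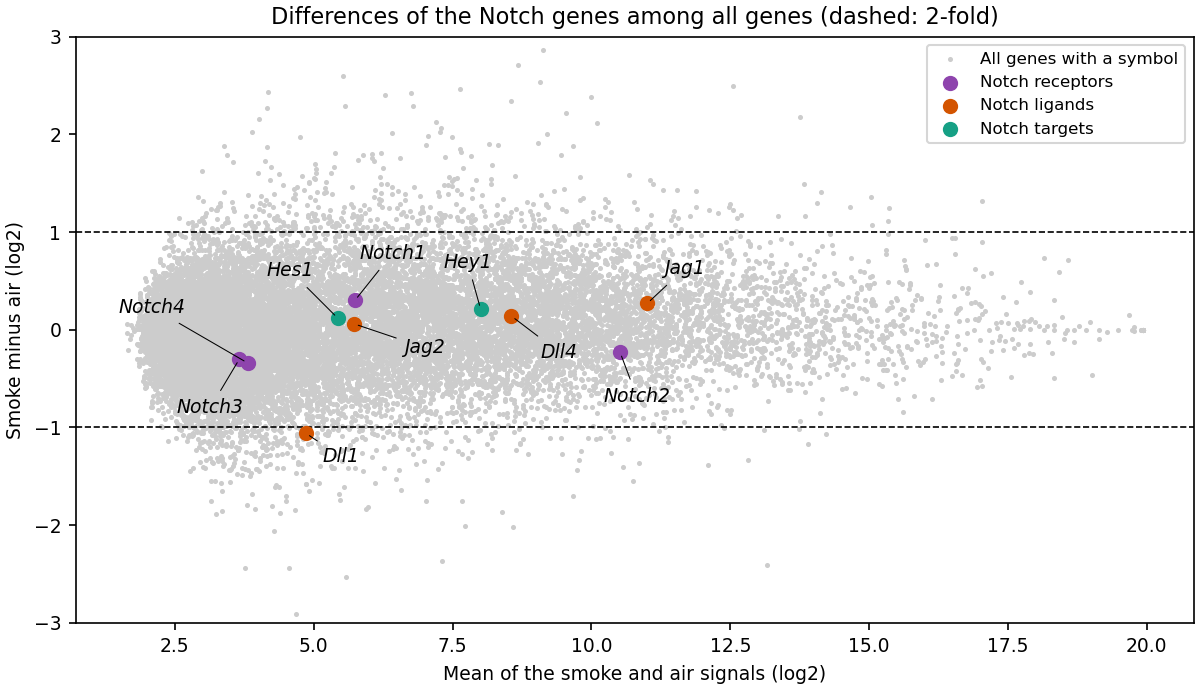
Smoke minus air difference (vertical axis, log2) against the mean of both signals (horizontal axis, log2) for every gene with a symbol, in grey, and for the 10 Notch genes in colour by role; 11 genes lie beyond the vertical axis, which ends at 3 in each direction. Dll1 falls just past the lower dashed line at -1, and the other 9 Notch genes lie between -0.34 and 0.30 in the body of the cloud.

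The other ligands differed less. Jag1, the Jagged ligand whose loss causes Alagille syndrome in humans, stood at 11.14 in smoke and 10.87 in air, a difference of 0.27, and 128 of the 200 genes of like level had a lower one. Jag2, its paralogue, was at 5.76 in smoke and 5.70 in air, a difference of 0.06. Dll4, a ligand of sprouting blood vessels that also acts in thymic epithelium, was at 8.63 in smoke and 8.49 in air. Its difference of 0.14 was close to the median of 0.12 among genes of like level. Of the 4 ligands 3 were higher in the smoke array and 1, Dll1, was lower, with a median difference of 0.10 and a mean of -0.15. Jag1, Jag2 and Dll4 each differed by less than the robust SD of genes of like level, which was 0.42, 0.51 and 0.49.

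Promoter sequence was read for the ligands because the largest and the smallest difference among the 10 genes, those of Dll1 and Jag2, both fell in this group. The table of RefSeq promoter windows used here (GRCm38.p6) held 8 of the 10 genes, in 9 windows, since Dll1 has 2 annotated starts; the other genes are Hes1 and Hey1. The build behind the array annotation is not stated in the sources used here, so these coordinates belong to RefSeq alone. The 250 bases before the start are printed for Dll1 (chr17:15375824-15376073 and chr17:15376933-15377182, minus strand), the gene past 2-fold, and for the other ligands, which were not: Dll4 (chr2:119325534-119325783, plus strand), Jag1 (chr2:137116521-137116770, minus strand) and Jag2 (chr12:112929496-112929745, minus strand). Capitals mark matches, on either strand, to 6 motifs: the RBPJ core TGGGAA, the N-box CACNAG to which HES repressors bind, the E-box CACGTG, the GC-box GGGCGG, the CCAAT-box CCAAT and the TATA-box TATAAA.
Dll1 at chr17:15375824-15376073: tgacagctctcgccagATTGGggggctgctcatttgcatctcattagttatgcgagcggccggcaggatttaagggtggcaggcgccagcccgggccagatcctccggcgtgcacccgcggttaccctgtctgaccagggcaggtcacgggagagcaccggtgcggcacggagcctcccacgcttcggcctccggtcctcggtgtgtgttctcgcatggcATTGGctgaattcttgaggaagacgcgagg
Dll1 at chr17:15376933-15377182: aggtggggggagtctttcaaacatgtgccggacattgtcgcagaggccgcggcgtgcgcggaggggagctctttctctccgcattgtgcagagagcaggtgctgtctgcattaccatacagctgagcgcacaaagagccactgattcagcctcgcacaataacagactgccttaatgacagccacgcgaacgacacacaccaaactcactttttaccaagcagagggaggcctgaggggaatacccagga
Dll4: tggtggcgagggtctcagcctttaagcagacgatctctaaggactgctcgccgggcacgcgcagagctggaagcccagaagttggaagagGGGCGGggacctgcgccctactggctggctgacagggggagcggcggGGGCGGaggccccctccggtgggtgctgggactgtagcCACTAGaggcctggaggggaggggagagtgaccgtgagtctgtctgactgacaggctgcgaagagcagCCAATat
Jag1: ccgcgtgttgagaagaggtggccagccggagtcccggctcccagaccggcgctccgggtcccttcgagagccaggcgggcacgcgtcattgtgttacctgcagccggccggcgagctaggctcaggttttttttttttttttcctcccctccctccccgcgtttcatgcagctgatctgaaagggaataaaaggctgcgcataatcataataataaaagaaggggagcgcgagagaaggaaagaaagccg
Jag2: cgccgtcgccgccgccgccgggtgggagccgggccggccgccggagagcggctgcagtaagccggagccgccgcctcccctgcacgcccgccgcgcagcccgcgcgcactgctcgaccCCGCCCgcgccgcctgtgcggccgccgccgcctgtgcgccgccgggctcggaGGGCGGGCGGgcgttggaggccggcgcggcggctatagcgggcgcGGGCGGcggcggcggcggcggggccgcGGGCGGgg

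The RBPJ core was found in 0 of the 9 Notch gene windows, against 21.6% of 32851 windows of the same length over all genes. The N-box was found in 4 of the 9 (Notch1, Notch2, Notch3 and Dll4) and in 36.7% of all windows. The GC-box was found in 5 of the 9 and in 32.7% of all windows, the CCAAT-box in 2 of the 9 and 33.9%, the E-box in 0 and 6.02%, and the TATA-box in 0 and 12.4%. The 9 windows held 56% to 87.2% G and C, beside a median of 52.4% over all windows. The part of this base composition in the motif counts was not tested. In the windows printed, the Dll1 start of lower coordinate had CCAAT-box matches beginning 234 and 30 bases before the start and none of the other motifs. The second Dll1 window and that of Jag1 had no match to any of the 6, while Dll4 had an N-box, a pair of GC-boxes and a CCAAT-box. Jag2 had 5 GC-boxes, of which those beginning 80 and 76 bases before the start overlap, in a window of 87.2% G and C. No match overlapped one of a different motif in these 5 windows. A match describes letters, not a bound site, and a missing one says only that these letters are not in this window.

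The target genes were close to equal in the arrays. Hes1, a repressor that Notch switches on in many tissues and that other signals also control, stood at 5.49 in smoke and 5.37 in air, a difference of 0.12, with 126 of 200 genes of like level lower. Hey1, a related repressor known from heart and vessel development, stood at 8.11 in smoke and 7.90 in air, a difference of 0.21, with 113 of 200 lower. Both differences were under the robust SD of genes of like level, 0.52 for Hes1 and 0.42 for Hey1. Both targets, 3 of the 4 ligands and 1 of the 4 receptors thus had the higher signal in the smoke array, each by at most 0.30.

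Beyond these 10 genes, 110 others were listed by role in the pathway, of which 103 were measured and 77 were above the level filter. Kyat1, which encodes a metabolic enzyme, is among them. Of the 77, 3 were past 2-fold higher and 2 past 2-fold lower in the smoke array, 6.49% in all, beside 6.41% over all genes. Their median difference was -0.01 over the 103 measured. The share past 2-fold was thus near that of the whole array.

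The 5 genes past 2-fold had different roles. Bhlhe41 (DEC2), a bHLH repressor related to the HES family and known mainly from the circadian clock, was at 5.58 in smoke and 4.01 in air, a difference of 1.57 that was 0.99 with the offset of 16. Rbpjl, a paralogue of Rbpj known for its part in a pancreatic transcription complex, was at 13.14 in smoke and 11.85 in air. Its difference of 1.29 exceeded that of 197 of 200 genes of like level and was 1.29 with the offset too. Numbl, a relative of the Notch inhibitor Numb, was at 5.39 in smoke and 4.35 in air, a difference of 1.04 that was 0.67 with the offset. Mfng, one of the fringe enzymes that add sugar to Notch and tune its response to ligands, was at 3.74 in smoke and 5.15 in air, a difference of -1.41 that was -0.81 with the offset. Dtx4, an E3 ubiquitin ligase of the Deltex family that acts on Notch trafficking, was at 6.45 in smoke and 7.65 in air, a difference of -1.20, and -1.07 with the offset. Rbpjl and Dtx4 were the 2 of these 5 that stayed past 2-fold with the offset, and each of the other 3 had 1 of its signals below the level filter.

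**Figure D3:**
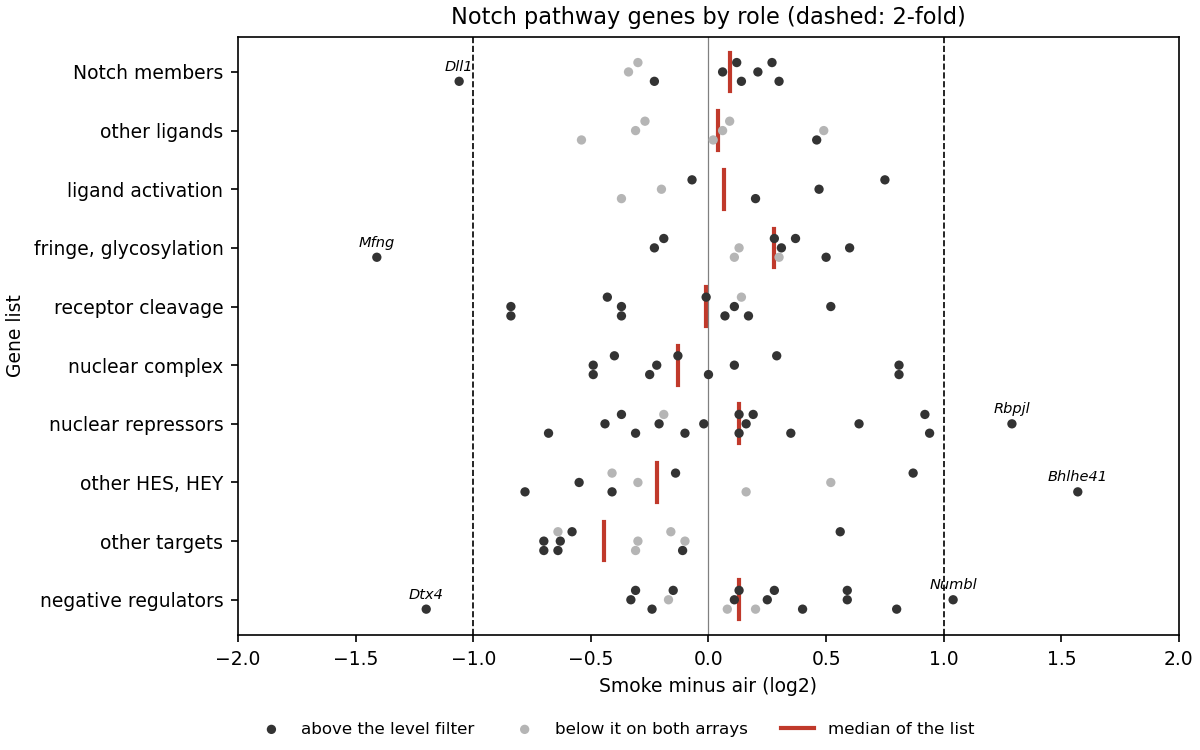
Smoke minus air difference (horizontal axis, log2) of each measured gene in the Notch members and in 9 further lists by role (vertical axis); dark points are above the level filter, light points are below it on both arrays, and the bar is the list median. The medians run from -0.44 in other targets to 0.28 in fringe and glycosylation genes, and 6 genes above the filter lie past the dashed lines, Dll1 among them.

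Genes that prepare the ligands and the receptors were mostly within 2-fold. Of 8 measured genes for noncanonical ligands and ligand-like proteins 1 was above the filter, Mfap2, a microfibril protein that can bind Notch ligands, at 4.72 in smoke and 4.26 in air. Mib1, the E3 ubiquitin ligase that readies ligands for endocytosis in the sending cell, was at 12.58 in smoke and 12.65 in air, and Epn1, an epsin of the same endocytic step, was at 9.63 in smoke and 8.88 in air, a difference of 0.75. Of the 6 genes of ligand activation 4 were above the filter and 0 of them past 2-fold, beside 6.41% over all genes. The 11 fringe and glycosylation genes had a median difference of 0.28 and a mean of 0.07, with 8 above the filter. Mfng apart, Lfng differed by -0.19 and Rfng, the remaining fringe, by 0.50. Eogt, a transferase that puts GlcNAc on EGF repeats, was at 12.02 in smoke and 11.65 in air.

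Of the 10 receptor cleavage genes above the filter 0 were past 2-fold, beside 6.41% over all genes. So few genes do not set the list apart from the array. Adam10, the sheddase of ligand-activated Notch, was at 11.43 in smoke and 11.36 in air, a difference of 0.07. Adam17, the related sheddase that also frees TNF and EGF receptor ligands, was at 10.86 in smoke and 11.70 in air. Its difference of -0.84 was larger than the robust SD of 0.41 among genes of like level, and 6 of 200 lay lower. Tspan14, a tetraspanin that helps ADAM10 mature, was at 10.92 in smoke and 11.76 in air, also a difference of -0.84. Among gamma-secretase subunits above the filter, Ncstn differed by 0.52, Psenen by 0.17, Psen2 by 0.11, Aph1a by -0.37 and Aph1b by -0.43, in both directions.

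In the nucleus, Rbpj, the DNA-binding partner of cleaved Notch, was at 9.42 in smoke and 9.64 in air, a difference of -0.22. All 11 genes of the nuclear activating complex were above the filter and 0 were past 2-fold, beside 6.41% over all genes. The median difference of the 11 was -0.13. The Mastermind coactivators went in both directions, with differences of 0.29 for Maml1, -0.40 for Maml2 and 0.81 for Maml3. The list of corepressors and repressors had 17 measured genes with a median of 0.13, 9 higher and 8 lower in the smoke array. It also held Kyat1 (0.13), which encodes a metabolic enzyme, a kynurenine aminotransferase, and not a known corepressor. These counts include it. Of the 16 above the filter Rbpjl alone was past 2-fold (6.25%), beside 6.41% over all genes. Spen, the RBPJ corepressor also called SHARP or MINT, was at 7.79 in smoke and 6.85 in air, a difference of 0.94. Tle5, a short Groucho-family protein, was at 16.46 in smoke and 15.54 in air, a difference of 0.92. On the lower side, the histone deacetylase gene Hdac2 was at 10.45 in smoke and 11.13 in air, a difference of -0.68, and Fhl1 and Tle3 differed by -0.44 and -0.37.

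The list of other HES and HEY genes also held their relatives Bhlhe40 and Bhlhe41, and 6 of its 10 genes were above the filter. Over the 10 the median of -0.22 and the mean of 0.05 had opposite signs. Bhlhe41 (1.57) and Bhlhe40 (0.87), which are not HES or HEY genes, had the largest differences above 0 and raised the mean. Heyl, a HEY relative reported as a Notch target in vessel walls, was at 4.33 in smoke and 5.11 in air, a difference of -0.78. Hes5, a Notch target of the nervous system, was at 4.49 in smoke and 5.04 in air, a difference of -0.55. Neither was above the level filter in smoke. Bhlhe40 (DEC1), the clock-linked relative of Bhlhe41, was at 14.76 in smoke and 13.89 in air.

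Genes reported elsewhere as targets of Notch, several of which answer to other signals as well, had the lowest median of the pathway lists, -0.44. With the offset of 16 this median was -0.23. Of the 12 measured genes 11 were lower in the smoke array, beside 9971 of 19489 genes over the whole array. Of the 7 above the filter 0 were past 2-fold, beside 6.41% over all genes. Nrarp, a feedback inhibitor and a close readout of Notch activity, had signals of 3.62 in smoke and 3.78 in air, neither above the filter. The inhibitors of DNA binding, which respond strongly to BMP signals, had differences of -0.64 for Id1, -0.58 for Id2 and -0.63 for Id3. With the offset of 16 these were -0.57, -0.58 and -0.39, and Id3 was below the filter in smoke. Cdkn1a, the cell cycle inhibitor p21, was at 11.53 in smoke and 12.23 in air. Efnb2, an arterial ephrin, was at 10.96 in smoke and 11.66 in air, a difference of -0.70, and also stands in the endothelial list. Myc was the 1 gene of the list with the higher signal in smoke, at 8.80 against 8.24 in air.

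Among negative regulators, 17 genes were measured and 14 were above the filter, with a median difference of 0.13. Numb, the adaptor that sends Notch for degradation, was at 9.81 in smoke and 10.05 in air, and the ubiquitin ligase Itch was at 7.43 in smoke and 6.84 in air. Sel1l, a component of endoplasmic reticulum-associated degradation, had a difference of 0.80. Fbxw7, which marks the intracellular part of Notch for destruction, was at 4.99 in smoke and 5.14 in air. Dtx4 and Numbl were the 2 genes of this list past 2-fold, in opposite directions. They are 14.3% of the 14 above the filter, too few genes to set against the 6.41% over all genes.

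Notch4, Dll4, Jag1, Hey1 and Efnb2 are also made by endothelial cells, and Notch3 by mural cells, so the markers of these cells were read in the same arrays. Of the 18 measured endothelial markers 15 were lower in the smoke array, with a median difference of -0.52. Over the whole array 9971 of 19489 genes were lower, with a median of -0.02. Above the filter the median was -0.56 for the endothelial markers and 0.06 for all genes. Of the 17 markers above the filter 3 (17.65%) were past 2-fold, all lower, beside 2.48% past 2-fold lower over all genes. Sox18 was at 5.75 in smoke and 7.39 in air, Cldn5 at 7.54 in smoke and 8.71 in air, Eng at 12.60 in smoke and 13.63 in air, Kdr at 10.12 in smoke and 11.04 in air, and Pecam1 at 9.97 in smoke and 10.70 in air. Cdh5, the endothelial cadherin, was at 13.86 in smoke and 14.34 in air. The 3 markers higher in the smoke array were Esam, Plvap and Vwf, with differences of 0.66, 0.31 and 0.04. Flt1 and Erg differed little, by -0.16 and -0.15. The endothelial signals, summed on the linear scale and returned to log2, came to 14.84 in smoke and 15.48 in air, but Cdh5 and Eng alone made up 71.6% of that sum in smoke and 73.1% in air. Dll4, Jag1 and Hey1 had differences above 0 (0.14, 0.27 and 0.21), whereas Notch4 and Efnb2 had differences below 0 (-0.34 and -0.70). No endothelial marker was at 0, and Sox17 was the 1 marker below the filter on both arrays. The part of endothelial RNA in any of these differences was not tested, and in a bulk sample fewer cells of a type and less RNA per cell cannot be told apart.

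**Figure D4:**
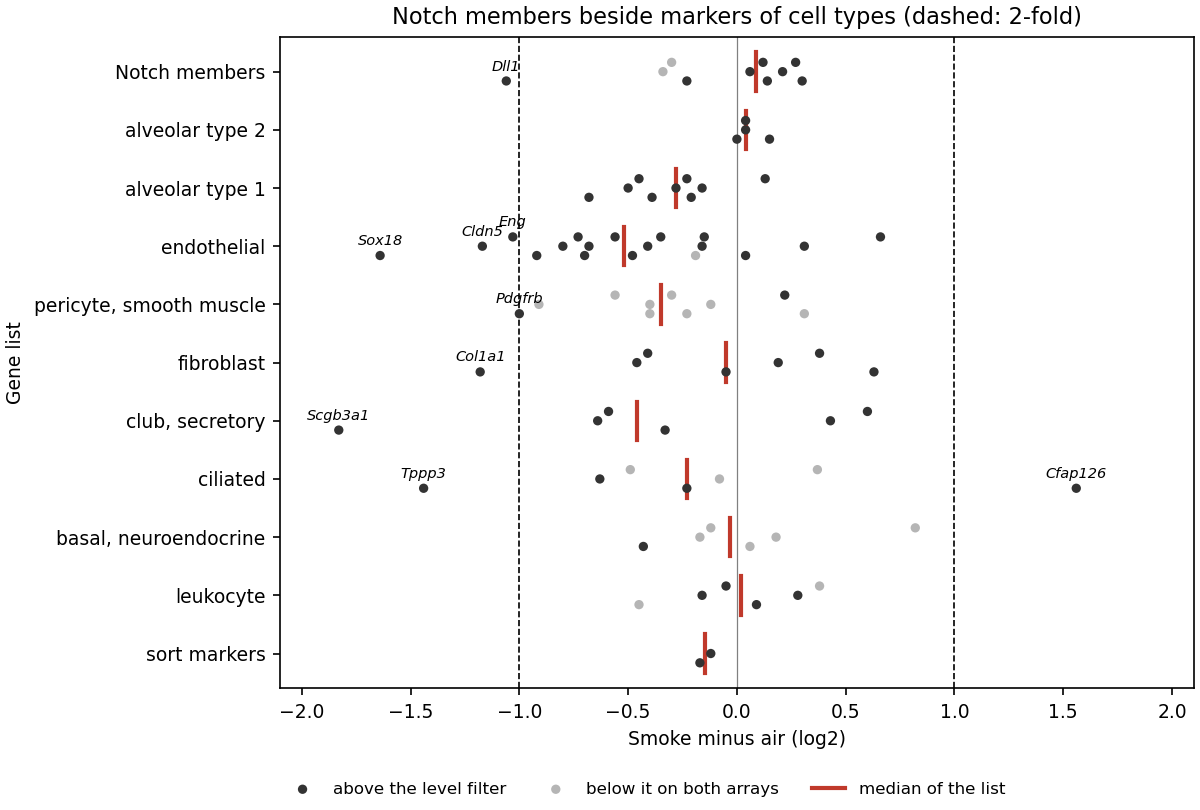
Smoke minus air difference (horizontal axis, log2) of the Notch members and of the markers of 10 cell types or gates (vertical axis), drawn as in the plot by pathway role; genes that both arrays put at the upper limit (6 of alveolar type 2, 2 of club and secretory, 1 of leukocyte) are left out. The endothelial median is -0.52 and that of the Notch members 0.09.

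Of the 10 pericyte and smooth muscle markers only Pdgfrb and Acta2 were above the filter. Pdgfrb was at 5.09 in smoke and 6.09 in air, exactly 2-fold lower in the smoke array, and Acta2 was at 7.38 in smoke and 7.16 in air. The list median, resting mostly on signals below the filter, was -0.35, and Notch3, also below it, differed by -0.30. With the offset of 16 the list median was -0.14 and Notch3 differed by -0.13. Genes of like level to Notch3 had a median of -0.14 without the offset. Of the alveolar type 2 markers 6 stood at the upper limit and Etv5 (19.91 in both arrays) and Napsa (19.76 in smoke and 19.61 in air) lay so close to it that a rise could hardly be seen; Abca3 was at 18.80 in smoke and 18.76 in air and Lpcat1 at 17.79 in smoke and 17.75 in air. The 9 alveolar type 1 markers had a median of -0.28. In the smoke array 8 of the 9 were lower, beside 9971 of 19489 genes over the whole array. Ager, the 1 that was higher, was at 18.54 in smoke and 18.41 in air. Clic5 was at 15.46 in smoke and 16.14 in air, Emp2 at 14.72 in smoke and 15.22 in air, and Vegfa at 12.85 in smoke and 13.30 in air. Of the 9, 0 were past 2-fold, beside 6.41% over all genes. Among airway markers, whose cells Notch is known to specify, Scgb1a1 and Cbr2 reached the upper limit in both arrays. Hp was at 16.89 in smoke and 16.46 in air, Cyp2f2 at 15.80 in smoke and 16.13 in air, and Scgb3a1, the 1 club and secretory marker past 2-fold, at 5.02 in smoke and 6.85 in air. The ciliated marker Tppp3 was at 9.02 in smoke and 10.46 in air and Cfap126 at 8.21 in smoke and 6.65 in air. The club and secretory median was -0.46 over 6 genes, 2 higher and 4 lower in the smoke array. All 6 were above the filter and 1 was past 2-fold (16.7%). The ciliated median was -0.23 over 7. Of the 4 ciliated markers above the filter Tppp3 and Cfap126 (50%) were past 2-fold, in opposite directions. The share over all genes was 6.41%, and lists this short cannot be set against it. Foxj1 was not analysed here. Of the 7 fibroblast markers 3 were higher and 4 lower in the smoke array, with a median of -0.05; Col1a1 was at 5.06 in smoke and 6.24 in air, and Col3a1 at 5.24 in smoke and 4.61 in air. Basal and neuroendocrine markers had a median of -0.03 and leukocyte markers 0.02 (Ptprc at 7.59 in smoke and 7.64 in air). The part of any of these cell types in the Notch gene differences was not tested.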

How the data were processed

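RNA of 1 smoke and 1 air sample was measured on Clariom S Mouse arrays. The authors deposited 1 value per probe, read here as log2 signal from its range, 1.55 to 19.93. Per the submitters' processing notes, Transcriptome Analysis Console was used; settings, background correction, normalization and build are not stated in the sources used here. Medians of the deposited log2 values were 4.53 in smoke and 4.61 in air, so normalization between arrays is likely but unstated, and the number of arrays limits the precision. Direction follows the sample labels.

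Of 22206 probes, 19572 had 1 gene symbol, 0 had several and 2634 were unnamed; all 19572 matched RefSeq (GRCm38.p6) by Entrez number. Probes of a gene were averaged, giving 19505 genes, and the 16 at the upper limit on both arrays had no measurable difference. With 1 array a group no test was run. Each difference was described beside the 200 genes nearest in mean level (Python 3.11.15, pandas 2.3.3); the calculation was tested on simulated data.

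The members, lists and thresholds were chosen with earlier results of these data known. The text names all 10 members, pathway genes above the filter, and of each cell type the brightest markers, those past 2-fold and a fixed few; Nrarp and Sox17, below the filter, were chosen after their values were seen. Alternatives covered the level filter, the fold threshold, quantile normalization, centring on genes of like level, offsets of 16 and 64 on the linear scale, the brightest probe and the mean of a list.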

Additional observations from a re-analysis of the deposited data

How the results depend on the processing

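The count of 1 Notch gene past 2-fold, Dll1, became 0 with a level filter at the 75th percentile of all probe values (4 of the 10 genes left), at a 3-fold threshold and with offsets of 16 and 64 on the linear scale, where the difference of Dll1 was -0.68 and -0.33. It was -1.01 after quantile normalization, still past 2-fold. The 10 genes kept their signs under quantile normalization and under centring on genes of like level, the alternatives that could turn one; over all settings Notch2 ran from -0.36 to -0.22, Jag1 from 0.17 to 0.27 and Dll4 from 0.02 to 0.14. The median of the 10 ran from 0.02 to 0.17 and their mean was -0.08. Under the filter at the 75th percentile the list of other HES and HEY genes had a median of 0.87. It rested on Bhlhe40 alone, a relative and not a HES or HEY gene. The club and secretory markers had 0.05 under that filter. Both changes came from the fewer genes left. The other list medians moved from their first values by less than 0.44, the typical robust SD among single genes of like level. Most of these medians were themselves smaller than that, so this measure does not show that they held. Among the wider ranges, other targets ran from -0.64 to -0.11 and basal and neuroendocrine markers from -0.43 to 0.09. Pericyte and smooth muscle markers ran from -0.39 to -0.05 and ciliated markers from -0.38 to -0.06. The endothelial median ran from -0.62 to -0.50. The genes past 2-fold over the whole array were 410 higher and 258 lower, against 212 and 74 with the filter at the 75th percentile, 243 and 102 with the offset of 16, 133 and 45 with the offset of 64, 1514 and 958 at 1.5-fold, and 66 and 35 at 3-fold. No paired analysis was possible because each condition has 1 array, and leaving out an array leaves no comparison. Signals below the filter, those of Notch3, Notch4 and of Dll1 in smoke, limit what the arrays can show.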
